A study of Mus musculus with 6 samples.

Results

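The Gadd45 stress response family was followed in mouse liver through every array probe named Gadd45a, Gadd45b, Gadd45g or Gadd45gip1. The arrays carried 6 such probes among 41174, with 1 probe for Gadd45a, 2 for Gadd45b, 1 for Gadd45g and 2 for Gadd45gip1, and each probe was kept apart. The family was chosen by its gene names with the averaged alcohol over control ratios of its probes already known, so these ratios, the background flags and the levels in each pool are given as a description, without a test. Male 129/Sv mice, 6 to 8 weeks of age at the start, drank a liquid diet with 4% ethanol or, as controls, one of equal calories with added maltose dextran, for 1, 2 or 4 months. Both arms had been on the control diet before, and each time point used its own mice. Liver RNA from 6 mice was pooled for each diet and time point, and the 2 pools of a time point were hybridized together on 2 two-color arrays with the dyes exchanged.

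GADD45A, GADD45B and GADD45G are small, closely related nuclear and cytoplasmic proteins without enzyme activity of their own. They bind other proteins, including the kinase MAP3K4 upstream of p38 and JNK, the cyclin-dependent kinase CDK1, PCNA and the inhibitor CDKN1A, and take part in growth arrest, DNA repair and active DNA demethylation. The genes are induced by stress, cytokines and growth signals. In liver, Gadd45b is known as an early gene of regeneration and as a partner of the nuclear receptor CAR, the product of Nr1i3. Gadd45gip1 encodes an unrelated protein that binds the GADD45 proteins and is also a component of the mitochondrial ribosome.

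The share of spots well above background ranged from 73.3% to 90.3% over the arrays and dyes. One slide held the 1-month arrays and another held the later ones, so the slide and the step from 1 month to the later months cannot be told apart. Over 27900 probes above background in every channel, exchanging the dyes gave Pearson correlations between the paired arrays of 0.16, -0.30 and -0.32 at 1, 2 and 4 months, taken across probes and not across mice. For this reason both arrays are given for each member. The SD of the 2 arrays is technical and does not contain the variation between mice. Since each pool is a single sample, no p-value is given within a month. In liver tissue, fewer cells with a transcript and less RNA per cell cannot be told apart. All 10 hepatocyte markers measured, albumin among them, were well above background in both pools at every month.

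Both Gadd45b probes had higher signals in the alcohol pool at 2 and 4 months on each array, by 2.84-fold to 16.6-fold on average. Gadd45g was lower in the alcohol pool at 1 month, nearly even at 2 months and 2.06-fold higher at 4 months. Gadd45a and Gadd45gip1 stayed below 2-fold at every month. A probe was called raised or lowered when the arrays averaged 2-fold or more and the technical error deposited with the ratios gave a p below 0.05, a filter and not a test of alcohol. By this criterion 0 of the 6 probes were raised at 1 month, 2 at 2 months and 3 at 4 months, while 0.126%, 0.16% and 0.34% of all probes were raised. None of the 6 was lowered at any month, against 0.0801%, 0.129% and 0.282% of all probes. With 2-fold required on each array instead, 0, 2 and 2 of the 6 were raised, against 0.085%, 0.0899% and 0.214% of all probes. The family was chosen with these ratios known, so nothing is read from the counts.

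**Figure D1:**
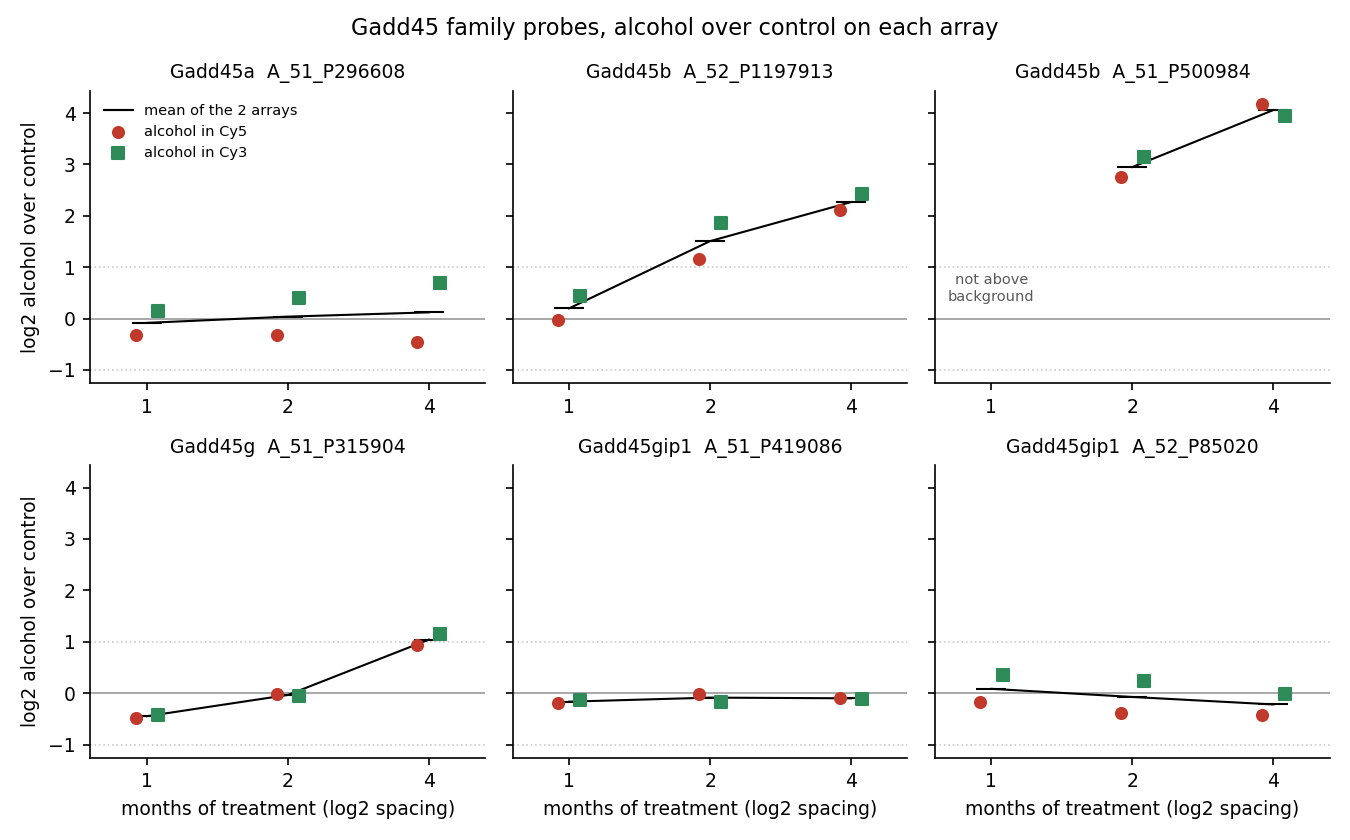
Log2 alcohol over control (vertical axis) at 1, 2 and 4 months (horizontal axis, log2 spacing) for the 6 probes. Circles and squares are the arrays with alcohol in Cy5 and in Cy3, the line joins their means, dotted lines mark 2-fold, and the second Gadd45b probe has no ratio at 1 month because neither pool was well above background. Both Gadd45b probes lie above 2-fold on each array at 2 and 4 months, and the Gadd45a arrays spread to opposite sides of 0 (-0.46 and 0.70 at 4 months).

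The brighter Gadd45b probe, A_52_P1197913, passed the background flag in every channel. At 1 month its processed signal was 1431 in the alcohol pool and 1466 in the control pool on the array that had alcohol in Cy5, and 1320 and 979 on the other. At 2 months the signals were 1781 in alcohol and 796 in control on the first array, and 1722 and 477 on the second. At 4 months they were 4600 and 1062.5 on the first array, and 4026 and 753 on the second. The alcohol and control signals overlapped at 1 month and were separate on both arrays at the later months. The log2 ratios of the 2 arrays were -0.03 and 0.43 (mean 0.20, SD 0.33) after 1 month, 1.16 and 1.85 (mean 1.51, SD 0.49) after 2 months, and 2.11 and 2.42 (mean 2.27, SD 0.22) after 4 months. As folds, the means were 1.15, 2.84 and 4.81 in that order. The 1-month mean was smaller than the SD of its arrays, and the means of 2 and 4 months were larger than theirs. The SD also holds the part that follows the dye, so this comparison is not a test.

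The other Gadd45b probe, A_51_P500984, failed the background flag in both pools at 1 month, with signals of 18.8 to 22.3 over the 4 channels, all of them surrogate values that the scanner software had put in place of the measured ones. No ratio is given for that month. At 2 months its signal was 513 in alcohol and 76.3 in control on the array that had alcohol in Cy5, and 536 and 60.6 on the other. At 4 months it was 1997 and 110 on the first array and 1199 and 78.4 on the second. The pools were separate on all 4 of these arrays and above background in each channel. The log2 ratios were 2.75 and 3.15 at 2 months (mean 2.95, SD 0.28, 7.72-fold) and 4.18 and 3.93 at 4 months (mean 4.06, SD 0.17, 16.6-fold). Of the 41174 probes, 2 had a higher ratio than this probe at 2 months and 0 had a higher ratio at 4 months, whereas 19 and 13 lay above the brighter Gadd45b probe. The probes differed in size by 1.44 on the log2 scale at 2 months and 1.79 at 4 months, and both pointed to higher Gadd45b in the alcohol pool. After another background correction (normexp) and loess normalization, the ratios of A_51_P500984 were 2.33 and 3.50 and those of the brighter probe 1.48 and 2.23.

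The level of each pool, expressed as the log2 of the signal relative to the 75th percentile of its channel, is given next, and levels are compared within a probe. For A_52_P1197913 the alcohol pool was at 0.36 ± 0.02 (SD of the 2 arrays), 0.23 ± 0.23 and 0.88 ± 0.11 at 1, 2 and 4 months. The control pool was at 0.16 ± 0.36, -1.27 ± 0.26 and -1.39 ± 0.11. From 1 to 2 months the control pool of this probe was lower by 1.43 and the alcohol pool by 0.13, and from 2 to 4 months the alcohol pool was higher by 0.65. For A_51_P500984 the alcohol pool was at -1.51 ± 0.31 at 2 months and -0.59 ± 0.28 at 4 months, and the control pool at -4.45 ± 0.03 and -4.65 ± 0.10. This probe went from a level not above background in both pools at 1 month to a measurable level in both at 2 months, while the brighter probe was lower in the control pool over the same step. The probes thus disagreed on the control pool between 1 and 2 months, a step that crosses the slides. Between 2 and 4 months, on the shared slide, they moved in the same directions, where the control pool moved by -0.11 and -0.20 and the alcohol pool by 0.65 and 0.92. Of 27900 probes well above background throughout, 1.07% were at least 2-fold higher and 1.95% at least 2-fold lower in the alcohol pool at 4 than at 2 months, and 0.803% and 1.73% in the control pool. Neither Gadd45b probe reached 2-fold in either pool by this measure.

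**Figure D2:**
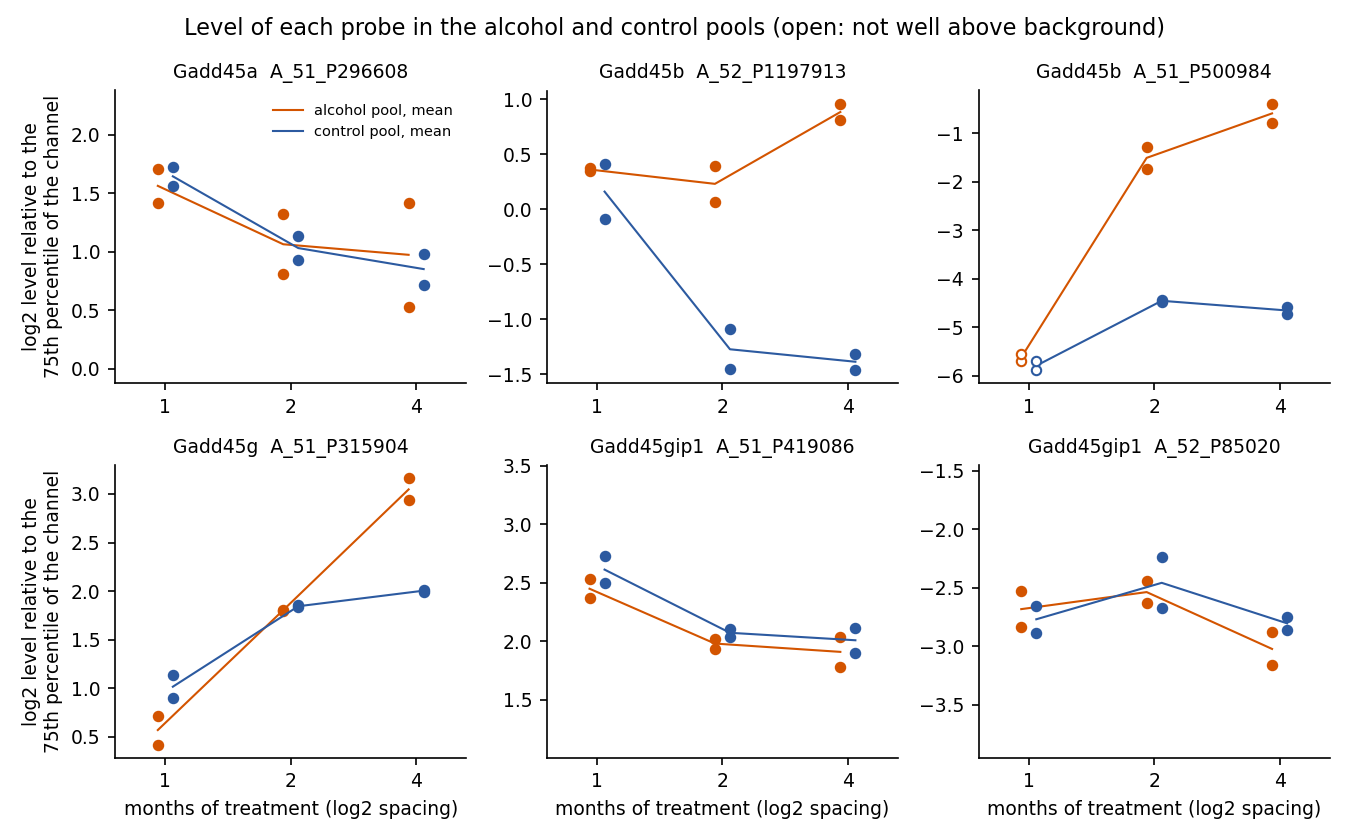
Log2 level relative to the 75th percentile of the channel (vertical axis, scaled for each probe) at 1, 2 and 4 months (horizontal axis, log2 spacing) in the alcohol and control pools. Points are single arrays, lines join the means of the 2 arrays, and open points were not well above background. The pools of both Gadd45b probes part at 2 and 4 months, and the Gadd45g pools part at 4 months, where alcohol is at 3.05 and control at 2.00.

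Gadd45g, the family member first described as a cytokine response gene, was measured by A_51_P315904, well above background in every channel. At 1 month its signal was 1475 in alcohol and 2057 in control on the array that had alcohol in Cy5, and 1712 and 2288 on the other. At 2 months the signals were 5962 and 6045 on the first array and 4561 and 4724 on the second. At 4 months they were 20070 and 10494 on the first array and 18542 and 8378 on the second. On each array the alcohol signal was below the control signal at 1 month, close to it at 2 months and above it at 4 months. Over both arrays of a month, the alcohol and control signals overlapped at 2 months and were separate at 1 and 4 months. The log2 ratios were -0.48 and -0.42 at 1 month (mean -0.45, SD 0.04), -0.02 and -0.05 at 2 months (mean -0.04, SD 0.02) and 0.94 and 1.15 at 4 months (mean 1.04, SD 0.15). The 4-month mean was 2.06-fold, just over the threshold, and the array with alcohol in Cy5 lay just under it. At 1 month the control pool was 1.37-fold the alcohol pool, and 577 of the 41174 probes had a lower ratio. At 4 months 156 probes had a higher ratio. Both arrays of 1 month and both of 4 months thus lay on opposite sides of 0, a pattern seen in 7.51% of the 27900 probes, as did those of 2 and 4 months, seen in 4.23%. For 1 and 2 months the share was 9.52%, and Gadd45g was not among them.

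The Gadd45g levels were higher at 2 than at 1 month in both pools, 1.80 after 0.57 in alcohol and 1.84 after 1.02 in control, a step that crosses the slides. On the shared slide, from 2 to 4 months, the alcohol pool was higher by 1.24 on the log2 scale, or 2.37-fold, a difference above that of 99.7% of the 27900 probes. The control pool was higher by 0.16, or by 0.071 when the channels were scaled by loess and Aquantile. With alcohol in Cy5 on both arrays the Gadd45g ratio changed by 0.96 from 2 to 4 months, and with alcohol in Cy3 by 1.20. The same changes were 0.95 and 0.57 for the brighter Gadd45b probe and 1.43 and 0.79 for the other, all in the same direction in either dye orientation. In each of these 3 probes the 4-month ratio was above every earlier ratio given.

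Gadd45a, known as a target of p53, was measured by A_51_P296608 at signals of 2490 to 5550. Its log2 ratio was -0.31 with alcohol in Cy5 and 0.14 with alcohol in Cy3 after 1 month, -0.32 and 0.40 after 2 months, and -0.46 and 0.70 after 4 months. The sign followed the dye at every month, with Cy3 the brighter channel whichever pool it held. The averages were -0.08 (SD 0.32), 0.04 (SD 0.51) and 0.12 (SD 0.82), and their distance from 0 was smaller than the SD each time. Dividing the difference between the 2 arrays by 2 gives the part that follows the dye, which was -0.23, -0.36 and -0.58 and at 4 months exceeded that of 94.3% of the 27900 probes in size. A dye part equal on both arrays enters their SD and drops out of their average. The SD is thus not a detection limit for the average, and no such limit was estimated for Gadd45a. The levels were 1.56, 1.06 and 0.97 in the alcohol pool and 1.64, 1.03 and 0.85 in the control pool at 1, 2 and 4 months.

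**Figure D3:**
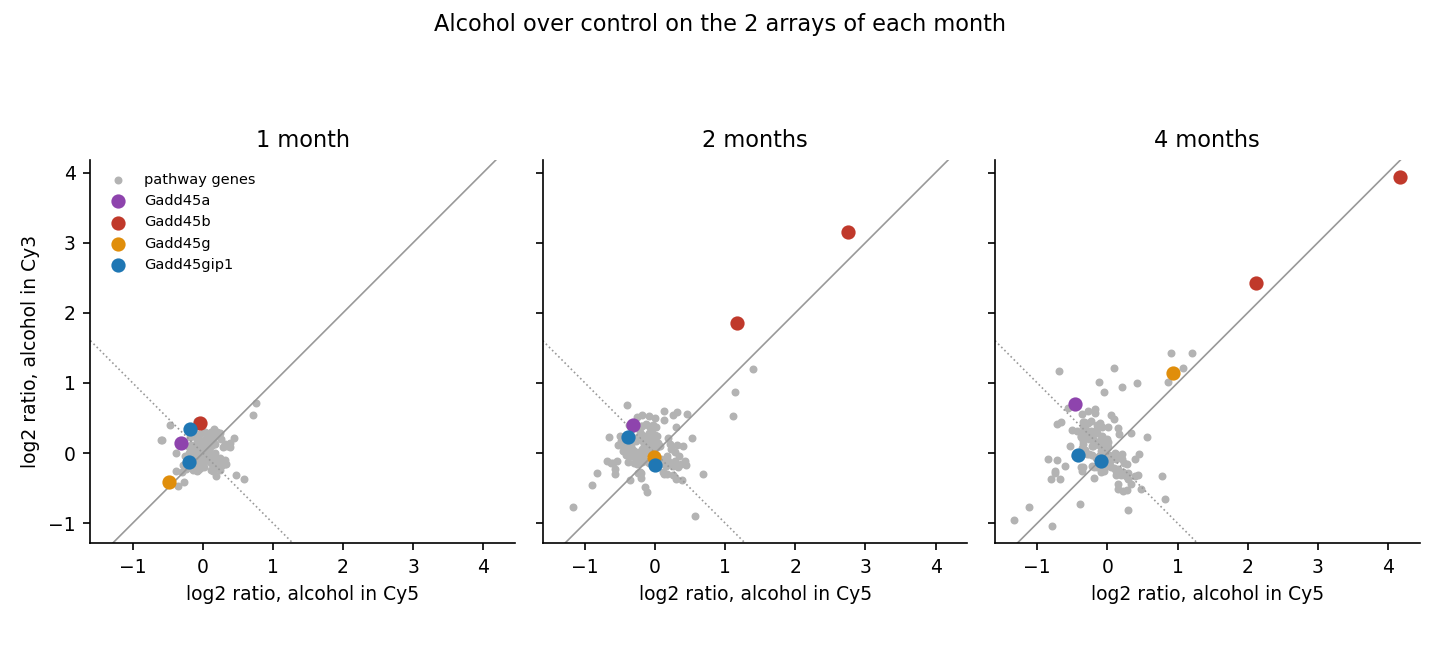
Log2 alcohol over control on the array with alcohol in Cy5 (horizontal axis) against the array with alcohol in Cy3 (vertical axis) at each month. Points on the solid diagonal are equal on both arrays and points on the dotted diagonal follow the dye. Gray points are 153 pathway genes, and the Gadd45b probe without a ratio at 1 month is left out there. At 4 months Gadd45b (2.11 and 2.42, and 4.18 and 3.93) and Gadd45g (0.94 and 1.15) lie by the solid line, and Gadd45a (-0.46 and 0.70) lies where the arrays disagree in sign.

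Gadd45gip1 encodes the interacting protein and mitochondrial ribosome component. Its brighter probe, A_51_P419086, had signals of 5023 to 11436 and log2 ratios of -0.20 and -0.13 after 1 month, -0.01 and -0.17 after 2 months, and -0.09 and -0.12 after 4 months. The means were -0.17 (SD 0.05), -0.09 (SD 0.11) and -0.10 (SD 0.02) and all 6 arrays lay below 0. The dimmer probe, A_52_P85020, had means of 0.08 (SD 0.37), -0.07 (SD 0.44) and -0.22 (SD 0.28), each smaller in size than its SD. The arrays of this probe differed in sign at 1 and 2 months. The largest mean on either probe was a control pool 1.16-fold the alcohol pool at 4 months.

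The sequence just before the start site is shown for Gadd45a, Gadd45b and Gadd45g because Gadd45b and Gadd45g met the 2-fold criterion at 4 months and Gadd45a did not. The 250 bases come from RefSeq, build GRCm38.p6, 5′ to 3′ on the strand of the gene, at chr6:67037408-67037657 (minus strand), chr10:80929841-80930090 (plus strand) and chr13:51846425-51846674 (plus strand). Of the 4 genes, 3 matched an entry. Capitals mark short core promoter and factor motifs, named after the sequences.
Gadd45a: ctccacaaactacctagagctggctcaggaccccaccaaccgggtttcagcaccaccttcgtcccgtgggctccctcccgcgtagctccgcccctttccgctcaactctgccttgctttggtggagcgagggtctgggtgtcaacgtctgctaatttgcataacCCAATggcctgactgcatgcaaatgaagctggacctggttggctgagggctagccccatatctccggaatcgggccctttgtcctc
Gadd45b: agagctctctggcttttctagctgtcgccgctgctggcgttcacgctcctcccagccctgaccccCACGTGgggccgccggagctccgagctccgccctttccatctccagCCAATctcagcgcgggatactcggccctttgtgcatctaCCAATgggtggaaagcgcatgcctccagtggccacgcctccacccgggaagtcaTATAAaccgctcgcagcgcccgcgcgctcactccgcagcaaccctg
Gadd45g: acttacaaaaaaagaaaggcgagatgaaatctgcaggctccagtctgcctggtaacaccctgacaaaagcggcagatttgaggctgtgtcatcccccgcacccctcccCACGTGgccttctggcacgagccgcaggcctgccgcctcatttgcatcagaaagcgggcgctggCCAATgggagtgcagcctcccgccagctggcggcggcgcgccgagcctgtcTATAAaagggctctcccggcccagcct
The motifs were picked with the sequences in view and searched on both strands, and no matches overlapped. The TATA box core TATAA begins 46 bases before the start of Gadd45b and 27 bases before that of Gadd45g, and is found in 22.8% of 32851 promoter windows of the same length. The CCAAT box begins 86 bases before the start of Gadd45a, 139 and 100 bases before that of Gadd45b and 78 bases before that of Gadd45g, and is found in 33.8% of the windows. The E-box CACGTG begins 185 bases before the start of Gadd45b and 142 bases before that of Gadd45g, and is found in 6.02%. The forkhead motif TGTTTAC, found in 3.17%, has no match in these windows. A match describes letters only.

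Genes around the family were examined in 6 lists, with the brightest probe of each gene. Over 153 genes, 0 were raised and 0 lowered at 1 month, 2 were raised and 0 lowered at 2 months, and 3 were raised and 1 lowered at 4 months. The 2 genes raised at 2 months were 1.31% of the list genes, against 0.16% of all probes, and the 3 raised and 1 lowered at 4 months were 1.96% and 0.654%, against 0.34% and 0.282%. The list genes were taken by their brightest probes, so these shares are not of like probes. The limma test of the 3 monthly ratios against 0, with Benjamini-Hochberg adjustment over 37922 probes, called 0 of the 150 list genes among them and 0 of the 37922, of which 3012 had an unadjusted p under 0.05. The other 3 list genes, Pmaip1, Rrm2b and Ier3, were not well above background on any array and were not tested. The smallest adjusted p of any gene in the 6 lists was 0.613, and that of any probe was 0.121. The fit takes the 3 months as replicates of a constant effect. A change confined to 1 month or growing with time therefore counts as error, and such genes could hardly be called.

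Of 20 binding partners and kinases of the MAP kinase route, Cdkn1a, the cell cycle inhibitor p21, was the gene called. Its log2 ratios were -0.04 and -0.22 at 1 month, 1.40 and 1.20 at 2 months (mean 1.30, SD 0.14) and 0.56 and 0.23 at 4 months (mean 0.39, SD 0.24), with a limma adjusted p of 0.677 over the months. Cdkn1a was thus highest at 2 months, when Gadd45g was even between the pools. Map3k4, the direct kinase target of the family, had means of 0.03, 0.04 and -0.01, and Nr1i3, the CAR gene, 0.16, 0.10 and 0.01. The list medians of 0.02 at 1 month, near 0 at the later months, were close to the medians of all probes, 0.016, -0.0045 and -0.016.

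Among 12 partners in DNA repair and demethylation 0 were called at any month, and the list medians were -0.043 and -0.029 at 1 and 4 months and 0 to 2 decimals at 2 months. Apex1, a base excision repair endonuclease, had the largest mean over the months in size, with -0.23, -0.20 and -0.25 at 1, 2 and 4 months (limma adjusted p = 0.616). Xpa, a nucleotide excision repair factor, had -0.11, 0.40 and 0.08. Among 44 genes of the mitochondrial ribosome and other Gadd45gip1 partners 0 were called, with list medians of -0.0072, -0.10 and -0.038. The subunit genes Mrpl48 (-0.16, -0.33 and -0.52) and Mrpl41 (-0.19, -0.40 and -0.19) had the largest means over the months in size, each with a limma adjusted p of 0.616. The list medians on the arrays with alcohol in Cy5 and Cy3 were -0.21 and 0.12 at 4 months, on opposite sides of 0.

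Of 30 p53 targets, Cdkn1a was raised at 2 months, Plk3 was raised at 4 months and Plk2 was lowered at 4 months. The stress response kinase gene Plk3 had log2 ratios of 0.91 and 1.43 at 4 months (mean 1.17, SD 0.37) after means of -0.01 and 0.15, and was not called on the array with alcohol in Cy5 alone. The related kinase gene Plk2 had means of -0.34, -0.68 and -1.14 (SD 0.26 at 4 months), below 0 on all 6 arrays. Its single arrays at 4 months gave -1.33 and -0.96, and the call was lost on the array with alcohol in Cy3 alone and after normexp and loess (-0.93). Trp53 itself had means of 0.06, 0.07 and -0.12, and the p53 target Mdm2 had -0.03, 0.14 and -0.03. Of 19 growth arrest and DNA damage inducible genes outside the family, Ddit4, an inhibitor of mTOR signaling, was raised at 2 months (mean 1.00, SD 0.19) and at 4 months (mean 1.15, SD 0.10) after 0.23 at 1 month. At 2 months its mean lay at the 2-fold limit, with 1.13 and 0.87 on the single arrays, and the call was lost on the array with alcohol in Cy3 alone and after normexp and loess (0.99). Its limma adjusted p was 0.616. Ddit3, the Gadd153 gene, had means of 0.01, -0.21 and 0.20, and Ppp1r15a, the Gadd34 gene, -0.10, 0.06 and 0.06. Ddit3 and Ppp1r15a, which share the naming history of Gadd45, thus stayed below 2-fold. The medians were 0.023, -0.0037 and -0.045 for the p53 targets and 0.051, 0.067 and 0.056 for the other growth arrest genes.

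Of 29 regulators and feedback targets of NF-kB and TGF-beta, pathways known to induce Gadd45b, Id1 was raised at 4 months. Id1, an inhibitor of helix-loop-helix factors, had a mean of 1.32 (SD 0.15) there, and its control pool was well above background on 1 of the 2 arrays. After normexp and loess it had 0.84 and was not called. It was not above background at 1 month, and at 2 months its mean was 0.83. The feedback inhibitor genes Nfkbia (-0.03, 0.25 and 0.10) and Smad7 (-0.09, 0.51 and 0.04) stayed below 2-fold, as did Tnf (-0.01, -0.01 and -0.18) and Tgfb1 (0.15, -0.27 and -0.15). The list medians were -0.026, 0.0051 and -0.0051.

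**Figure D4:**
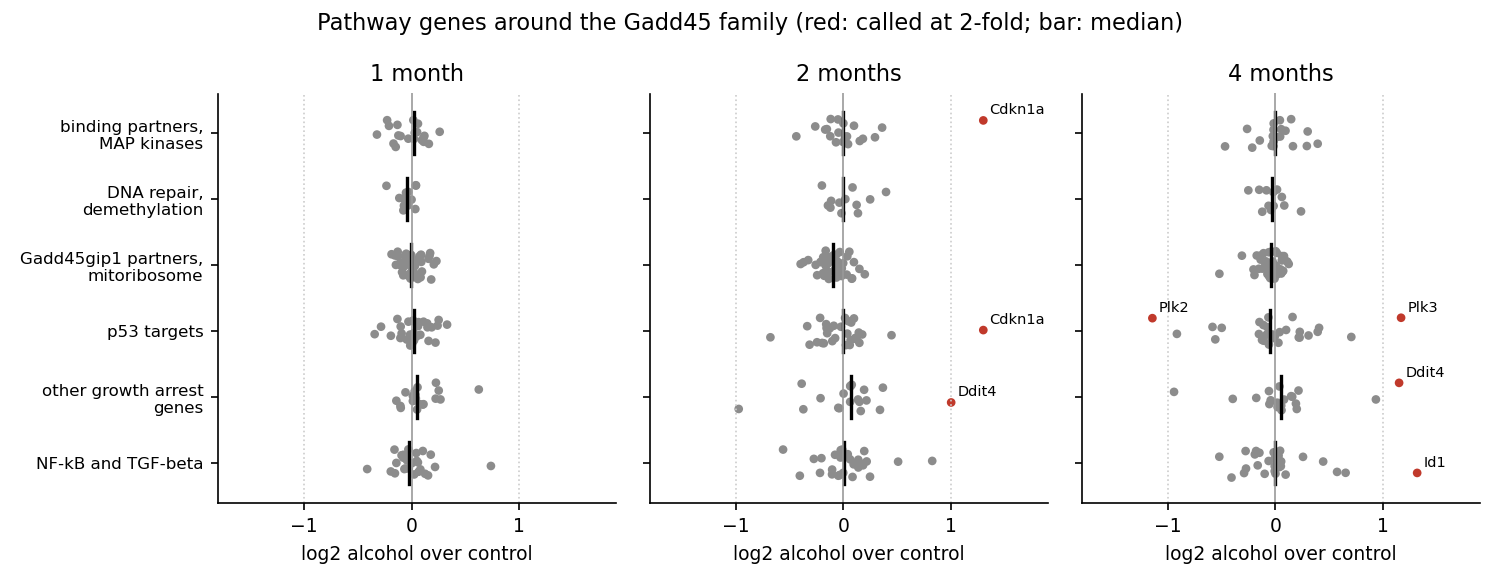
Log2 alcohol over control, mean of the 2 arrays (horizontal axis), of each gene in the 6 lists (rows) at 1, 2 and 4 months. Red points were called at 2-fold, bars are list medians and vertical position within a row has no meaning. The called genes are Cdkn1a and Ddit4 at 2 months and Plk2, Plk3, Ddit4 and Id1 at 4 months, and the other genes lie within 2-fold.

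The 5 probes nearest to the brighter Gadd45b probe were found by the root mean square difference of the log2 ratios over the 6 arrays, among 18087 named probes well above background throughout. Cyp2c38, a cytochrome P450, was nearest at 0.36, with means of 0.62, 1.25 and 2.12 at 1, 2 and 4 months. Tsku, which encodes a secreted proteoglycan made in liver, followed at 0.42 (0.25, 1.37 and 1.62). Both probes of Cyp3a44, a P450 with close paralogs that may share its signal, were at 0.44 (0.62, 0.96 and 2.23 on A_52_P366803, and 0.84, 1.22 and 2.28 on A_52_P571006). Igfbp1, which encodes an insulin-like growth factor binding protein, came next at 0.46, with -0.23, 1.97 and 2.74 on A_51_P447545. The median over all candidates was 1.62. Most probes had ratios near 0, so this median mainly repeats the size of the Gadd45b ratios. It does not show that the 5 probes are unusually alike.

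**Figure D5:**
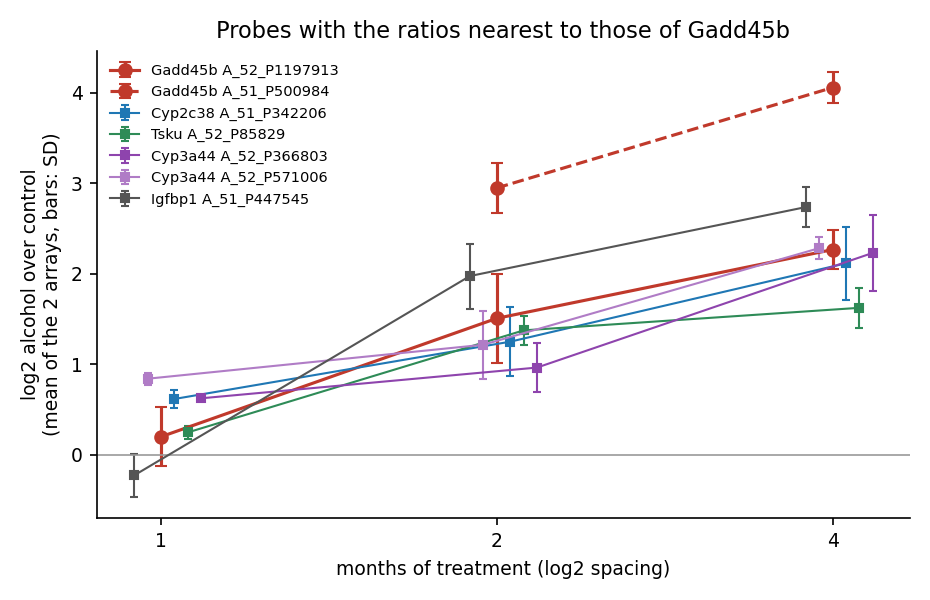
Log2 alcohol over control, mean of the 2 arrays with their SD as bars (vertical axis), at 1, 2 and 4 months (horizontal axis, log2 spacing) for both Gadd45b probes and the 5 probes nearest to the brighter of them. The nearest probe, Cyp2c38, is at 2.12 at 4 months beside 2.27 for Gadd45b, and the dimmer Gadd45b probe lies above all at 4.06.

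Markers of other tissues and cells also moved in part. Of 22 pancreas acinar markers, 0 were raised at 1 and 2 months and 5 at 4 months, with log2 ratios of 3.75 for Cela2a, 2.42 for Pnliprp1, 2.20 for Try5, 2.17 for Cpb1 and 1.14 for Prss3, and a list median of 0.42 at 4 months. On the single arrays of 4 months this median was 0.61 with alcohol in Cy5 and 0.31 with alcohol in Cy3. The summed acinar level is given in multiples of the 75th percentile. At 4 months it was 50.8 to 61.6 in the alcohol pool and 37.1 to 51.0 in the control pool. These ranges overlapped, but each spans both arrays and does not pair the pools within an array. At 2 months, when both Gadd45b probes were already raised, the summed acinar level was 41.7 to 48.8 and 41.9 to 47.2. The part of acinar RNA in the 4-month values of Gadd45b and Gadd45g was not tested. Of 7 erythroid markers, the globin genes Hba-a1 (1.51) and Hbb-bt (1.97) were raised at 1 month, when Gadd45g was lower in the alcohol pool, and Alas2 was lowered at 4 months (-2.00). The summed erythroid level at 1 month was 78.3 to 100.8 in alcohol and 23.7 to 37.0 in control, and its part in the Gadd45g value was not tested. At 4 months, when Gadd45b and Gadd45g were raised, the sum was 38.0 to 50.5 in alcohol and 28.6 to 34.3 in control, again without overlap, with 0.61 for Hba-a1 and 0.63 for Hbb-bt, and its part in those values was not tested either. At 2 months the sums of 46.3 to 58.7 and 56.4 to 61.1 overlapped. Of 13 macrophage and neutrophil markers, Adgre1 was raised at 1 month (1.23, SD 0.74) and S100a8, not above background in either pool, met the criterion at 4 months (1.27). None of the 14 stellate and endothelial, 12 T and B cell or 8 bile duct markers was called at any month. At 1 month, when Gadd45g was lower, the stellate and endothelial list had a median of 0.21 against 0.016 for all probes, with 0.19 and 0.21 on the single arrays. Its summed level was 31.1 to 31.7 in alcohol and 26.8 to 28.8 in control, ranges that did not overlap. The medians of this list were -0.011 and 0.098 at 2 and 4 months. The macrophage and neutrophil list at 1 month had a summed level of 25.1 to 25.5 in alcohol and 23.4 to 23.8 in control, which did not overlap either. The part of either list in the Gadd45g value at 1 month was not tested. Of the stellate, endothelial, T and B cell and bile duct genes, Lyve1 (0.95 at 1 month) and Reln (-0.67 at 4 months), Cd8a (-0.30 at 2 months) and Cd79a (0.27 at 4 months), and Epcam (0.30 at 2 months) and Spp1 (-0.49 at 2 months) belonged to the genes with the largest means over the months in their lists. Each value shown is that of 1 month and not the mean, and Spp1 was at 0.38 at 1 month. Of the hepatocyte markers, 0 were called, and Alb (albumin) and Tat (tyrosine aminotransferase) had 0.59 (SD 0.31) and 0.69 (SD 0.93) at 4 months. The hepatocyte list median at 4 months was 0.73 with alcohol in Cy5 and 0.011 with alcohol in Cy3. The summed hepatocyte level at 2 months was 294 to 304 in alcohol and 253 to 309 in control. At 4 months, on the same slide, it was lower in both pools, 159 to 184 and 116 to 189. The part of this step in the Gadd45 levels from 2 to 4 months was not tested. The part of these cell types in the Gadd45 values was not tested.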

How the data were processed

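Liver RNA pools of 6 mice each were measured on 6 two-color arrays. Per the file headers, the authors used Agilent Feature Extraction 9.1.1.1, which deposited for each spot a signal intensity after background subtraction and dye normalization, a log10 ratio of Cy5 over Cy3 and flags. The authors also deposited a value table of log10 ratios, already turned to alcohol over control, which served as an alternative and equalled the scanner ratios to within 0.02 on the log2 scale in 100% of single-spot values. Here, log2 alcohol over control was computed from the processed signals, averaged over spots (245 probes had 10) and over the dye-swap pair. Levels are relative to the 75th percentile of a channel. Probes were matched to RefSeq symbols (22951 of 41174). The members and gene lists were chosen with earlier results of these data known. The 6 pathway lists and 7 marker lists come from general knowledge. The genes named are the members, up to 6 called genes per list or else the 2 with the largest mean, the 5 probes nearest to Gadd45b, and background genes (Map3k4, Nr1i3, Trp53, Mdm2, Ddit3, Ppp1r15a, Nfkbia, Smad7, Tnf, Tgfb1) picked after their values were seen. Tests used limma 3.58.1 (R 4.3.3), and tables were made with pandas 2.3.3 under Python 3.11.15. The limma step was tested on simulated data. The ratio p-values the authors deposited, and their clustering and pathway analyses, were not used. Arrays give no read depth, and their number limits the precision. The alternatives tried were other ratio sources, normexp (offset 50) with loess, centring, error weighting, a 1.5-fold threshold, filters, the slide as a block, single arrays and single months left out.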

Additional observations from a re-analysis of the deposited data

Results flagged for a closer look

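Gadd45g is listed because both arrays of 1 month (mean log2 ratio -0.45) and both of 2 months (-0.035) lay below 0 and both arrays of 4 months (1.04) above it. The difference between months was not tested here or for any gene below. Of 27900 probes, 7.51% had both arrays of 1 month on one side and both of 4 months on the other, 4.23% did so for 2 and 4 months, and 9.52% for 1 and 2 months. In the gene lists, a gene was counted only if at least 1 pool was well above background on each array of both months. Of the 153 pathway genes, 15 met this and showed such opposite sides between 1 and 2 months. Between 1 and 4 months 16 did, and between 2 and 4 months 2 did, 23 in all. Of 86 marker genes the numbers, under the same filter, were 9, 9 and 5, and 14 in all. Values follow for the counted genes that the text names. Named genes that did not pass the filter, such as Pmaip1 and Rrm2b, are left out whatever their sides. Among the pathway genes these were Cdkn1a (-0.13 at 1 month against 1.30 at 2 months and 0.39 at 4 months), Xpa (-0.11 against 0.40 at 2 months), Mdm2 (-0.029 against 0.14 at 2 months), Smad7 (-0.093 against 0.51 at 2 months), Tgfb1 (0.15 against -0.27 at 2 months and -0.15 at 4 months) and Trp53 (0.060 against -0.12 at 4 months). Among the marker genes these were Cpb1 (-0.31 against 2.17 at 4 months), Try5 (-0.096 against 2.20 at 4 months), Cd79a (-0.025 against 0.097 at 2 months and 0.27 at 4 months) and Spp1 (0.38 against -0.49 at 2 months and -0.27 at 4 months). Of the probes nearest to Gadd45b, Igfbp1 showed it (-0.23 against 1.97 at 2 months and 2.74 at 4 months).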

How the results depend on the processing

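All alternatives run for the member ratios kept the direction of both Gadd45b probes and of Gadd45g at every month where they were called. The 2 Gadd45b probes met each calling criterion at 2 and 4 months. Gadd45g at 4 months did not when 2-fold was required on each array or on the array with alcohol in Cy5 alone (0.94), which leaves 2 of the 6 probes raised. After normexp and loess A_51_P500984 gave 2.33 and 3.50, and Gadd45g at 2 months gave -0.013 and, with each array centred on its median, -0.0057. With loess and Aquantile in place of the 75th percentile, 17 of 34 levels and 1 of 12 changes from 2 to 4 months moved by more than the SD of the arrays. Counts over all probes varied more. At 1.5-fold, 142, 250 and 608 were raised and 135, 339 and 486 lowered at 1, 2 and 4 months. Requiring 2-fold on each array gave 16 lowered at 1 month, 37 raised and 30 lowered at 2 months, and 88 and 71 at 4 months. Normexp and loess, by fold alone, gave 21 lowered at 1 month, 41 raised and 20 lowered at 2 months, and 76 and 68 at 4 months. Without the error filter 92 were lowered at 2 months, with both channels above background 31 were lowered at 2 months and 91 raised at 4 months, and with error weighting 348 were raised at 4 months. Single arrays gave 203 to 328 raised and 190 to 365 lowered at 2 months, and 270 to 1101 raised and 278 to 501 lowered at 4 months. For the 153 pathway genes, 1.5-fold gave 1 raised at 1 month, 2 lowered at 2 months, and 5 raised and 3 lowered at 4 months, and normexp and loess gave 1 raised at 2 months and 0 lowered at 4 months. Single arrays gave 1 to 3 raised and 0 to 1 lowered at 2 months, and 2 to 6 raised and 1 to 2 lowered at 4 months. Limma called 9 probes with normexp and loess, 6 among the 27900 probes that passed the background flag in every channel, and 0 in the other fits run, and 0 pathway genes in any fit. The causes were not tested. Alcohol and control share each array, so every ratio is already paired within it. No paired analysis was possible across months because the labels number no replicates and each dye-swap pair was averaged to 1 value per month before limma. Changes between months matched arrays by dye orientation alone. The months share no mice, pools have no replicates, and levels at 1 month come from another slide.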
